A study of Mus musculus with 6 samples.

Results

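Among 1632 single cells of the mouse hippocampal CA1 region, 105 carried transcripts of at least 3 of 7 genes that are best known from the deep layers of the neocortex, namely Hs3st4, Tle4, Nxph3, Rprm, Tbr1, Sox5 and Fezf2. A cell barcode was retained when it had 501 to 8000 detected genes and at most 40% of its unique molecular identifiers (UMIs) in mitochondrial genes, and it was selected when at least 3 of the 7 genes had a UMI and when Gad1, Gad2 (markers of GABAergic neurons) and Pdgfra (a marker of oligodendrocyte precursors) had none. These 105 are called the selected cells here, since their measured levels of these 7 genes chose them. A neutral name was also used because some other layer 6 genes, such as Syt6 and Ntsr1, were scarce in them, as described below.

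Tbr1, Sox5 and Fezf2 encode transcription factors that act on one another while cortical projection neurons acquire deep-layer identities, Fezf2 being tied to neurons that project below the cortex and Tbr1 to corticothalamic neurons of layer 6. Tle4 encodes a Groucho-family corepressor, Hs3st4 a sulfotransferase that modifies heparan sulfate, Nxph3 a secreted ligand of neurexins and Rprm a protein linked to cell cycle arrest. CA1 itself consists mostly of pyramidal neurons that express Zbtb20, Wfs1 and Fibcd1, and it borders the subiculum and lies beneath the deep layers of the neocortex.

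The cells came from 6 male C57Bl6 mice that had received, at postnatal day 28, a single injection of either placebo (3 mice) or 5000 IU/kg of recombinant human erythropoietin (EPO, 3 mice), and whose CA1 was taken 6 h later. The study compared EPO with placebo to ask how the hormone acts on pyramidal neurons. In Drop-seq, each transcript is marked with the barcode of a bead caught in a droplet with 1 cell and with a UMI, so that UMIs count molecules. The label D1 is given to mice 1, 2 and 3 (placebo, EPO, placebo) and D2 to mice 4, 5 and 6 (EPO, placebo, EPO), with no meaning stated for either.

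The table held 20234 genes in 6000 barcodes, 1000 per mouse, and retained cells summed to between 267231 UMIs in placebo mouse 3 (90 cells) and 2150763 UMIs in EPO mouse 4 (405 cells). Placebo mice 1, 3 and 5 had 14, 3 and 20 selected cells, and EPO mice 2, 4 and 6 had 17, 37 and 14. They held 1176 to 55456 UMIs each, with quartiles at 4639, 9052 and 20454. Their sums per mouse, on which all comparisons of genes rest, ran from 21565 UMIs in placebo mouse 3 to 483383 in EPO mouse 4. Levels are given as CPM, the UMIs of a gene times 1000000 over all UMIs of the sum. At this scale 3 UMIs are 6.21 CPM in EPO mouse 4 and 139 CPM in placebo mouse 3, which was left out of comparisons within a mouse. In such sums, fewer cells that express a gene and less of its RNA per cell cannot be told apart. All p-values measure the spread between mice.

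Placebo mouse 1 and EPO mouse 4 shared 59 barcodes, 41 of them retained in both libraries, while no other pair of mice shared a retained barcode. In 41 of 41 the copy in placebo mouse 1 was deeper, by a median of 4.03 (range 3.16 to 5.87), and the log levels of the 2 copies correlated with a median Pearson's r of 0.712 across genes, against 0.341 for copies of different barcodes. Whether 2 copies are 1 cell was not tested. The shares and the tests were recomputed without the copy with fewer UMIs (101 selected cells left). Shares and tests of genes between cell groups and between treatments were also recomputed without both (89 left, 2 in placebo mouse 1). Tests that left 1 of the 7 genes out of the rule and tests of the interaction were not. Descriptions of cells, such as the split by Nts below, were recomputed in neither way. Shared barcodes made up 12 of the 14 selected cells of placebo mouse 1 and 4 of the 37 of EPO mouse 4. The 4 barcodes selected in both libraries are printed because each entered both a placebo and an EPO count, and capitals mark all 12 shared bases.
Shared cell A: CTACGTGTTCTA
Shared cell B: GCGCGAACTATT
Shared cell C: TCCCCAGCGTAT
Shared cell D: TGAACTGAAACT
Shared cell A held 25437 UMIs in the first of these libraries and 6967 in the other, with UMIs of 7 and 6 of the 7 genes and an r of 0.842 between its copies. Shared cell D held 37525 and 10207 UMIs, with 3 genes in each copy and an r of 0.871.

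**Figure D1:**
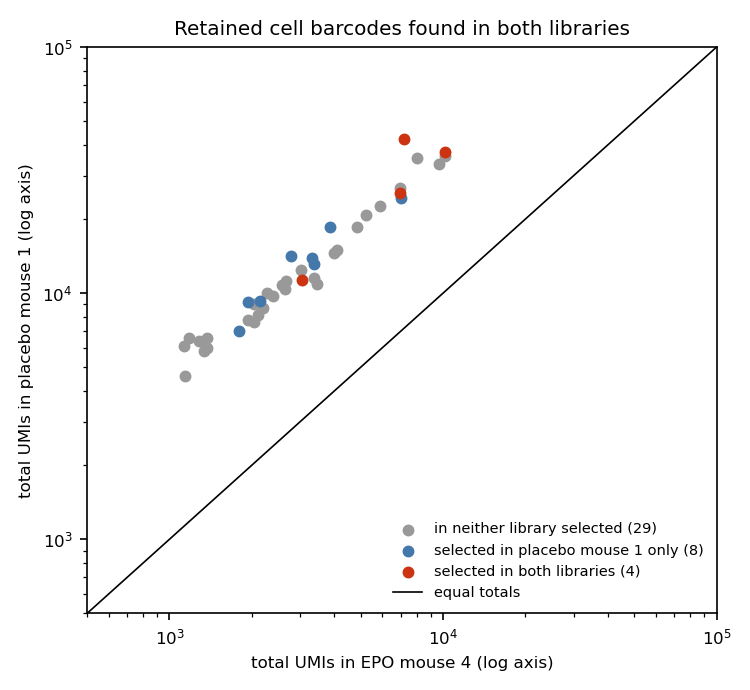
Total UMIs of the 41 retained barcodes present in both libraries, in placebo mouse 1 (vertical) and in EPO mouse 4 (horizontal), both on log axes, with the line of equal totals. All 41 points lie above the line, by 3.16 to 5.87 times, and 4 of them were selected in both libraries (red).

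The 7 genes were met unevenly. Hs3st4 had a UMI in 84 of the 105 selected cells (80.0%), Tle4 in 71, Fezf2 in 67, Sox5 in 59, Tbr1 in 45, Rprm in 39 and Nxph3 in 27. Hs3st4 and Tle4 occurred together in 54 cells, and 25 of the 27 cells with Nxph3 also had Tle4. The threshold was met exactly by 56 cells, while 30 had 4 genes, 12 had 5, 5 had 6 and 2 had all 7. The commonest combination was Hs3st4, Tle4 and Fezf2, in 10 cells.

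These genes lie on 6 chromosomes (GRCm38, GENCODE vM21), with Rprm at chr2:54084093-54085552 and Tbr1 at chr2:61802930-61814114 on the same chromosome. Hs3st4 spans chr7:123982869-124398989, Tle4 chr19:14448150-14598051 and Sox5 chr6:143828425-144781977, while Nxph3 spans chr11:95509845-95514570 and Fezf2 chr14:12342094-12348189. All are protein-coding.

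The number of the 7 genes with a UMI rose with the depth of the cell. Retained cells without the exclusion genes that had none of the 7 numbered 867, with a median of 1969 UMIs, and the 357 with 1 gene had a median of 3079. Just outside the threshold, 129 cells with 2 genes had a median of 6285 UMIs, and just inside it the 56 cells with 3 genes had 8897.5. A further 9 retained cells met the threshold but had a UMI of an exclusion gene, Gad2 in 6, Gad1 in 3 and Pdgfra in 3.

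Free RNA and mixed droplets give a background to such a rule. Of 270 retained cells with at least 4 of 8 oligodendrocyte genes, no Slc17a7 and no exclusion gene, 12 met it, or 4.44% (exact 95% interval 2.32 to 7.63%, which like all intervals here covers counting error only), at a median of 4024 UMIs. These 12 are among the 105 selected cells. The selected cells made up 28% (23.5 to 32.8%) of the 375 cells that were selected or had Slc17a7, at a median of 6382 UMIs. The 42 selected cells without Slc17a7 enter this share only because they were selected, which raises it. Among cells with Slc17a7 and no exclusion gene, 22 of 129 placebo and 41 of 204 EPO cells were selected. No selected cell was called a doublet by Scrublet, which called 29 retained cells, but 29 selected cells were among the 5% deepest cells of their mouse. UMIs of at least 3 genes of an astrocyte, microglia, endothelial or oligodendrocyte precursor list, or of at least 5 of the 8 oligodendrocyte genes, were found in 41 selected cells.

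As to the label of deep-layer neurons, the selected cells mostly had neuronal genes. Of genes of layer 6 corticothalamic neurons, Syt6, Ntsr1 and Foxp2 were absent or at few UMIs, while Crym stood far higher. Snap25, a synaptic vesicle fusion protein of all neurons, had a UMI in 100 of 105 (95.2%), and Camk2a, a kinase of excitatory neurons, in 93 (88.6%). Slc17a7, the vesicular glutamate transporter of CA1 and neocortex, had a UMI in 63, and Slc17a6, the transporter more typical of subiculum and thalamus, in 25. Of 105 other Slc17a7-positive cells matched 1 to 1, described below, 101 had Snap25, 101 Camk2a and 20 Slc17a6, so these genes hardly set the selected cells apart. The 42 selected cells without Slc17a7 were shallower, with a median of 4455 UMIs against 15504.

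On a list of 12 genes of layer 6 corticothalamic neurons, Syt6 had 0 UMIs in the selected cells, which allows up to 3 UMIs of the 1442642. Ntsr1, the receptor whose promoter is widely used to mark layer 6 corticothalamic cells, had 7 UMIs in 4 cells, or 4.85 CPM, against 8 UMIs and 4.10 CPM in the comparison cells described next. Foxp2 had 13 UMIs in 9 cells (8.57%, exact interval 3.99 to 15.6%) against 3 of 233 comparison cells (1.29%, at a median of 6298 UMIs) and 2.94% of 306 oligodendrocyte-like cells (median 4092 UMIs). Of the layer 6b genes, Nxph4 had 0 UMIs and Cplx3 3.

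The comparison cells were other cells with a UMI of Slc17a7, up to 3 for each selected cell, taken from the same mouse by the nearest total of UMIs. In EPO mice 2 and 4 and placebo mice 3 and 5 this took every such cell (40, 59, 9 and 41). Depth thus chose among cells only in placebo mouse 1 (42 of 57) and EPO mouse 6 (42 of 64). An alternative fit against all other Slc17a7-positive cells differs from the matched fit only in these mice. The 233 cells so matched had a median of 6298 UMIs, below the 9052 of the selected cells. Against them the selected cells had more UMIs in 5 of 5 mice, by 0.79 on the log2 scale (two-sided exact sign-flip permutation test, p = 0.0625, the smallest that 5 mice allow). With 1 matched cell for each, the median was 9503 UMIs and the difference 0.12. These 105 cells served as a closer match in depth for the tests of genes below. Their summed UMIs still lay below those of the selected cells, above all in EPO mouse 4 (322555 against 483383) and EPO mouse 2 (146729 against 198671). Mitochondrial shares differed by 0.127 percentage points (p = 1.0, exact sign-flip permutation test), with the selected cells lower in 4 of 5 mice. Against the 105 cells matched 1 to 1 the direction in most mice turned, the selected cells being higher in 4 of 5 mice by 2.3 points on average (p = 0.125, exact sign-flip permutation test).

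Whether the 7 genes hang together was tested by taking each gene out of the rule, selecting cells by at least 3 of the other 6, and measuring the gene that was left out. Hs3st4, Tle4 and Nxph3 were higher in cells so selected than in their matched cells, while the other 4 did not pass the threshold of 5% on the adjusted p. Hs3st4 and Nxph3 also passed with 1 matched cell for each selected cell, where Tle4 did not and Fezf2 did. The shares of all genes that were called higher in the same fits stand beside each. Of the 7, Hs3st4, Tle4, Tbr1 and Sox5 are among the markers that the study names for its immature glutamatergic cells on these same samples. All 7 were chosen with earlier results of these data known, so for none of them is the test independent evidence.

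Hs3st4, in CPM, was 273, 166, 131, 139 and 195 in the selected cells of mice 1, 2, 4, 5 and 6, and 113, 106, 66.8, 89.8 and 34.7 in their matched cells. The groups did not overlap, and the difference was a log2 fold change of 1.18 (SE 0.25, adjusted p = 0.00626 by edgeR's quasi-likelihood test with Benjamini-Hochberg adjustment, 1.84% of all genes called higher). Tle4 measured 146, 37.8, 117, 47.8 and 104 against 23.4, 11.6, 52.6, 37.2 and 19.6. It was higher in 5 of 5 mice with overlapping groups, EPO mouse 2 and placebo mouse 5 being the lowest, at a log2 fold change of 1.60 (SE 0.30, adjusted p = 0.00332 by edgeR, 0.462% of all genes called higher). Nxph3 measured 43.2, 20.1, 35.5, 11.8 and 100 against 2.92, 3.80, 11.1, 0 and 6.01, a log2 fold change of 2.93 (SE 0.53, adjusted p = 0.00260 by edgeR, 0.768% called higher). Its lowest selected value, in placebo mouse 5, lay just above its highest matched value, in EPO mouse 4. These Nxph3 values rested on few UMIs, 10, 4, 17, 3 and 25 against 1, 1, 5, 0 and 3, so that the gap is weakly founded.

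Rprm averaged 55.6 CPM against 19.8 and was higher in 4 of 5 mice (log2 fold change 1.46, adjusted p = 0.0569 by edgeR, 0.671% called higher). Tbr1 averaged 36.0 against 15.6, higher in 5 of 5 mice (1.09, adjusted p = 0.208 by edgeR, 0.728% called higher). Sox5 averaged 69.3 against 32.8 (1.10, adjusted p = 0.129 by edgeR, 0.326% called higher) and Fezf2 119 against 68.2 (0.92, adjusted p = 0.366 by edgeR, 0.370% called higher), each higher in 4 of 5 mice. With 1 matched cell for each selected cell, an alternative added after seeing the data, the log2 fold changes were 1.12 for Hs3st4 (adjusted p = 0.0367 by edgeR) and 2.92 for Nxph3 (adjusted p = 0.0103 by edgeR). Tle4 fell short at 1.09 (adjusted p = 0.111 by edgeR), and Fezf2 reached 1.79 (adjusted p = 0.00420 by edgeR), each higher in 5 of 5 mice. Rprm and Sox5 again did not pass, and Tbr1 had too few UMIs to be tested. In the comparison with 3 matched cells, placebo mouse 5 was the mouse in which Sox5 and Fezf2 were lower in the selected cells, and EPO mouse 2 the one for Rprm.

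**Figure D2:**
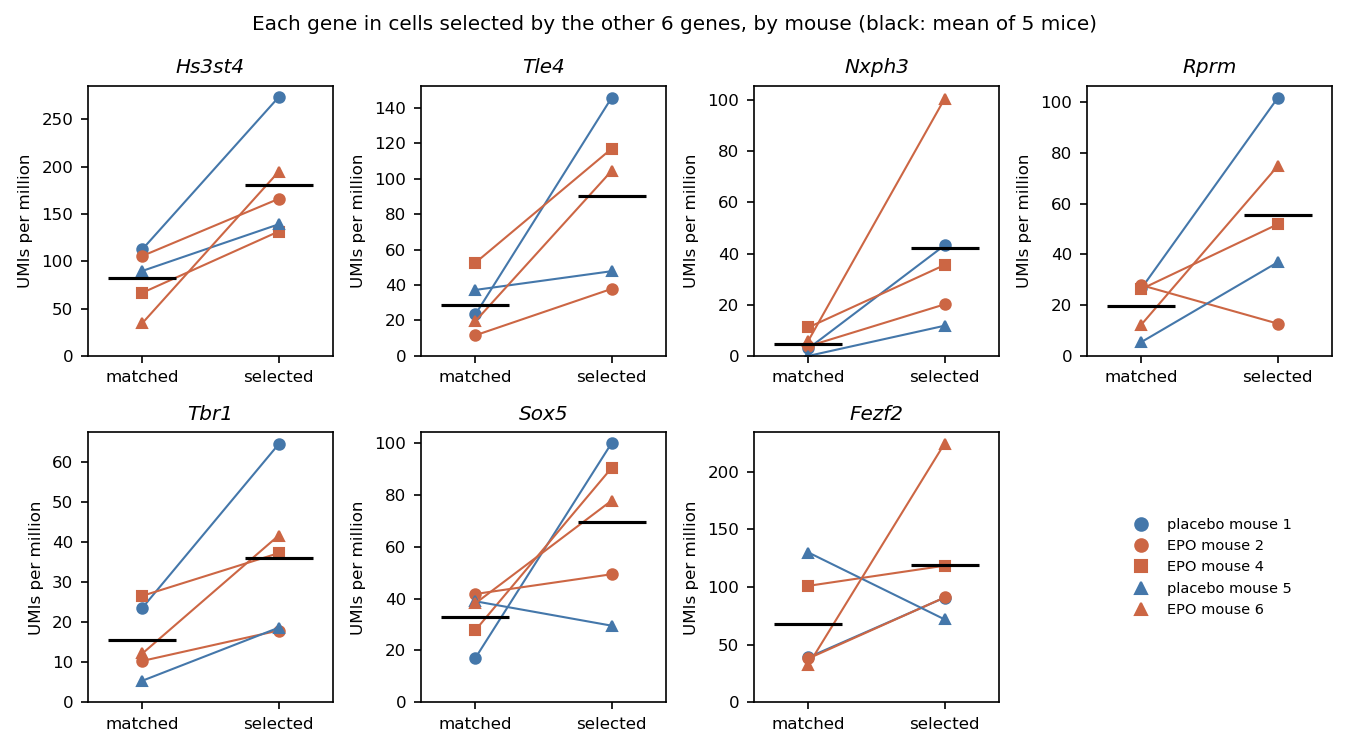
Levels of each of the 7 genes (CPM, linear axes from 0) in cells selected by the other 6 genes and in their matched cells, with 1 line per mouse and black bars for the mean of 5 mice. Hs3st4, Tle4, Nxph3 and Tbr1 are higher in the selected cells of 5 of 5 mice, while Rprm, Sox5 and Fezf2 are each lower in 1 mouse.

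Across the genes that the rule did not use, the genes called higher in the selected cells included Nts and Lxn of the subiculum list and Etv1 and Pcp4 of the layer 5 list, and those called lower included 4 of 12 CA1 genes. Of 6645 genes tested, 113 passed an adjusted p of 5% (edgeR's quasi-likelihood test with the mouse as a block, 1.70% of genes), 44 higher (0.662%) and 69 lower (1.04%), and 95 of these moved the same way in all 5 mice. Of the 44, 41 were higher in every mouse, as were 8.61% of all genes tested, and of the 69, 54 were lower in every mouse, as were 5.0% of all. Selected cells lay above the matched ones without overlap in 0.963% of all genes and below in 0.557%. Scaled by total UMIs in place of trimmed means, 114 were called, 70 of them higher. With 1 matched cell for each selected cell 62 were called, of which 47 were among the 113. Without the copies of shared barcodes with fewer UMIs 84 were called, all among the 113, and without both copies 107, of which 70 were. Tests without the mouse as a block called 18.

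Nts, which encodes the neuropeptide neurotensin, measured 171, 337, 319, 106 and 341 CPM in the selected cells of mice 1, 2, 4, 5 and 6, and 11.4, 3.80, 4.50, 87.1 and 6.01 in the matched cells. All selected values lay above all matched ones, the matched cells of placebo mouse 5 coming closest (log2 fold change 3.52, SE 0.47, adjusted p = 8.09e-05 by edgeR), and Nts stayed called in 23 of 23 alternatives. Lxn, encoding the carboxypeptidase inhibitor latexin, measured 85.3, 206, 211, 78.2 and 181 against 22.8, 11.4, 27.0, 58.1 and 36.1. Again the groups did not overlap and placebo mouse 5 showed the smallest gap (2.17, SE 0.30, adjusted p = 0.000111 by edgeR). Etv1, an ETS transcription factor of layer 5 neurons, measured 188, 383, 623, 188 and 313 against 111, 110, 122, 166 and 140, with all selected values above all matched ones (1.24, SE 0.22, adjusted p = 0.00151 by edgeR). Etv1 was not called by DESeq2 (adjusted p = 0.0897) nor without the deepest selected cell of each mouse (0.79, adjusted p = 0.130 by edgeR).

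Pcp4, a small regulator of calmodulin, measured 89.6, 85.6, 39.3, 39.1 and 76.3 against 11.4, 7.59, 2.25, 2.90 and 52.1, the matched cells of EPO mouse 6 overlapping the selected ones (log2 fold change 2.08, adjusted p = 0.00411 by edgeR). Plcb4, a phospholipase C of receptor signaling, had the smallest p and averaged 114 ± 34.3 CPM against 23.7 ± 14.6 (SD, n = 5), with a log2 fold change of 2.13 (adjusted p = 4.55e-05 by edgeR). The inhibitor of basic helix-loop-helix factors Id2 averaged 136 ± 39.7 against 32.4 ± 20.3 (SD, n = 5 mice). Both were higher in 5 of 5 mice and remained called with 1 matched cell for each and without the deepest selected cell of each mouse.

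Further genes with the smallest p among those called higher were as follows. The adhesion molecule Cntn4 rose by a log2 fold change of 1.88, the GDNF co-receptor Gfra1 by 2.16 and the synaptic organizer Cbln2 by 3.22. The complexin Cplx1, which acts on the release of synaptic vesicles, rose by 1.43, and Pcsk5, a protease that processes prohormones, by 2.82. The mitochondrial creatine kinase Ckmt1 (1.04), the LIM domain cofactor Ldb2 (1.11), the adhesion receptor Gpr123 (1.43), Tmem91 (2.33) and Ipcef1 (2.55) were also called, each higher in 5 of 5 mice with an adjusted p by edgeR between 0.000312 for Cntn4 and 0.00334 for Cbln2.

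The lower genes included several of CA1. Zbtb20, a zinc finger factor needed for the CA1 identity of pyramidal neurons, measured 499, 388, 199, 665 and 426 CPM in the selected cells against 823, 999, 907, 848 and 958. The groups did not overlap and EPO mouse 4 was lowest (log2 fold change -1.22, SE 0.17, adjusted p = 0.000127 by edgeR). Fibcd1, a membrane protein with a fibrinogen-like domain, measured 59.7, 101, 20.7, 82.1 and 84.3 against 94.0, 182, 164, 180 and 204, lower in 5 of 5 mice with the selected value of EPO mouse 2 above the matched value of placebo mouse 1 (-1.44, adjusted p = 0.00113 by edgeR). Wfs1, a protein of the endoplasmic reticulum, measured 81.1, 106, 47.6, 70.4 and 309 against 276, 194, 160, 107 and 385. It was lower in 5 of 5 mice although EPO mouse 6 stood high in both groups (-1.07, adjusted p = 0.00451 by edgeR). Of 23 alternatives, Zbtb20 stayed called in 23, Fibcd1 in 22 and Wfs1 in 20.

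Mef2c, an activity-dependent transcription factor, measured 93.9, 40.3, 43.4, 66.5 and 88.4 against 273, 292, 146, 63.9 and 421, lower in 4 of 5 mice with placebo mouse 5 the exception (log2 fold change -1.81, adjusted p = 0.000111 by edgeR). The neuropeptide Cck fell by 0.64 on the log2 scale and Pam, which amidates neuropeptides, by 0.92. Thsd7a fell by 2.02 and the carbonic anhydrase-related Car10 by 1.81, all 4 lower in 5 of 5 mice with an adjusted p by edgeR between 0.00329 and 0.00439. Cck and Car10 stayed called in 21 of 23 alternatives, and Pam and Thsd7a in 22. Tenm2 (-0.75), Dmd (-0.74) and the nuclear RNA Malat1 (-0.68) were lower in 5 of 5 mice too, but not with 1 matched cell for each selected cell, where their adjusted p by edgeR was 0.0740, 0.527 and 0.637.

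Some of the steepest differences belonged to blood and myelin. Hba-a1 (-3.81), Hba-a2 (-3.97) and Hbb-bt (-3.20), which encode hemoglobin chains, and Mog (-2.52), a myelin protein, were called lower by edgeR, and the matched cells of placebo mouse 1 held 2225, 1760, 1407 and 336 CPM of them. Without that mouse these 4 genes had too few UMIs to be tested, and DESeq2 did not call them (adjusted p 0.730 to 0.980).

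**Figure D3:**
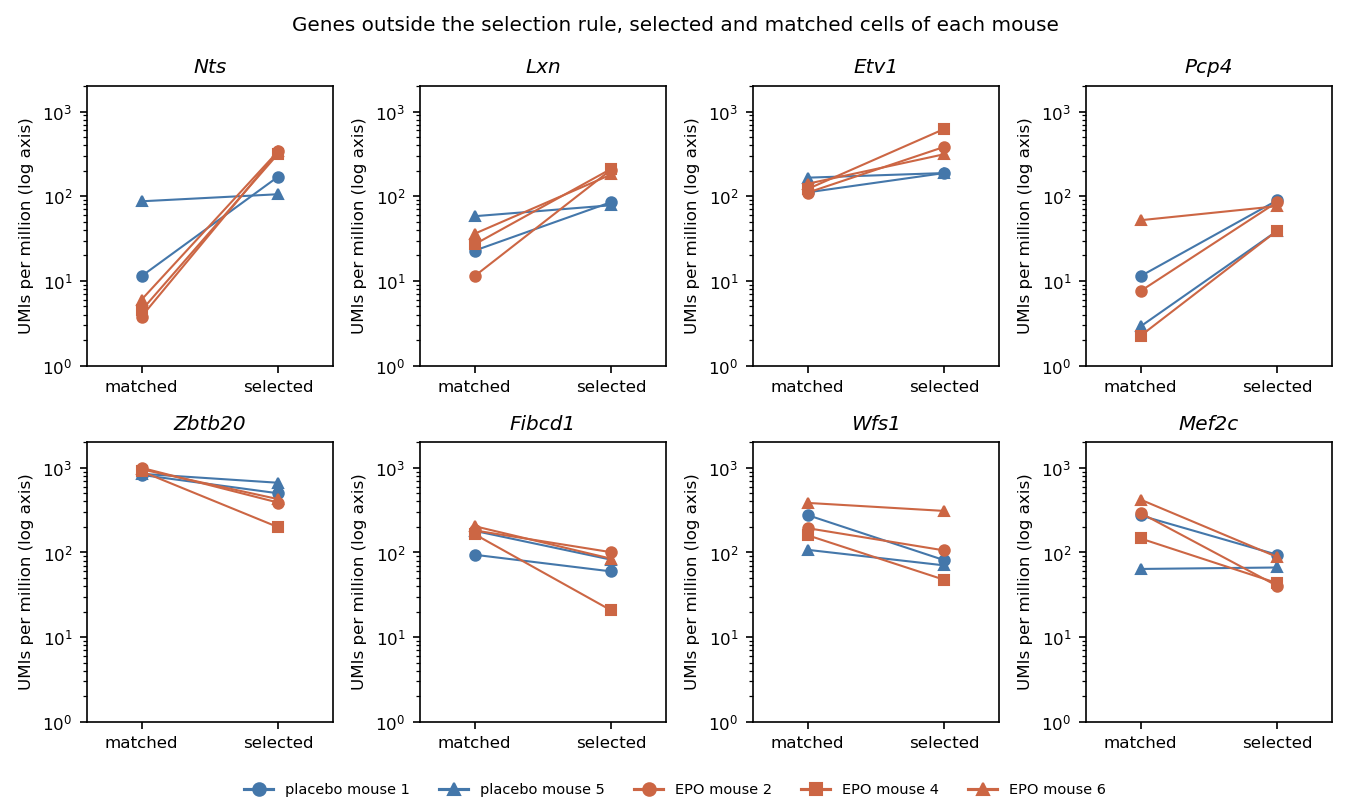
Levels of 8 genes outside the rule in selected and matched cells (CPM, log axes), with 1 line per mouse. Nts, Lxn, Etv1 and Pcp4 rise in 5 of 5 mice and Zbtb20, Fibcd1 and Wfs1 fall in 5 of 5, while Mef2c falls in 4.

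Read per cell, these differences were not shared by all selected cells. Nts had a UMI in 29 of 105 selected cells (27.6%) and in 6 of 105 cells matched 1 to 1, and Pcp4 in 24 against 5. Zbtb20 had a UMI in 60 against 82 and Fibcd1 in 34 against 65. Etv1 had a UMI in 53 against 59, so that its higher level did not come with more cells.

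A few cells held most of the neurotensin. In EPO mouse 2, 1 cell of 37700 UMIs had 65 of the 67 Nts UMIs of the 17 selected cells, together with 38 of the 41 of Lxn, 55 of the 76 of Etv1 and all 16 of Slc17a6. In placebo mouse 1, 1 cell held 34 of 40 Nts UMIs, and in placebo mouse 5, 1 held 20 of 27. The highest single cell held 43 of 154 in EPO mouse 4 and 44 of 85 in EPO mouse 6. Nts remained called without the deepest selected cell of each mouse (log2 fold change 3.04, adjusted p = 0.000301 by edgeR), as did Lxn (1.76, adjusted p = 0.000973 by edgeR).

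Split by a limit of 10 Nts UMIs, chosen after the values were seen and so described without a test, the selected cells held different sets of genes. The 11 cells at or above it had a median of 24981 UMIs, came from 5 mice (1 each from placebo mice 1 and 5 and EPO mouse 2, 6 from EPO mouse 4 and 2 from EPO mouse 6) and held 90.9% of all Nts UMIs of the selected cells, with 352814 of the 1442642 UMIs of all genes. They also held 78.7% of the Lxn, 71.7% of the Etv1, 70.9% of the Slc17a6 and 64.6% of the Rxfp1 UMIs, but 40.0% of the Plcb4 and 1 of the 87 Pcp4 UMIs, Rxfp1 being the receptor of relaxin and a gene of the subiculum list. All 11 had a UMI of Slc17a6 and 10 had Slc17a7.

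The same 11 cells were almost free of Hs3st4, with 4 UMIs in 352814, or 11.3 CPM, against 252 CPM in the 76 selected cells without Nts. They had 48.2 CPM of Tle4 against 129, 2.83 of Pcp4 against 86.6 and 17.0 of Zbtb20 against 614. Fezf2 ran the other way, at 346 CPM against 75.1. The 18 selected cells with 1 to 9 Nts UMIs lay between the others for these genes, at 168 CPM of Hs3st4, 55.9 of Tle4, 59.2 of Pcp4, 316 of Zbtb20 and 187 of Fezf2. Since cells were selected by 3 of 7 genes, a cell without Hs3st4 had to have others of them, so the levels of the 7 genes in these groups are not independent of the selection. Outside the selection, 4 retained cells reached 10 Nts UMIs, 3 in EPO mouse 6 and 1 in placebo mouse 5, with 912 CPM of Lxn, 903 of Etv1 and 0 UMIs of Hs3st4.

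Along the number of the 7 genes with a UMI, among Slc17a7-positive cells, Zbtb20 went from 1281 CPM in 114 cells with none to 940, 714, 461 and 333 in cells with 1, 2, 3 and 4 to 7. Nts went from 1.90 to 40.3, 11.4, 225 and 334. The layer 6 corticothalamic genes summed to 473, 714, 698, 881 and 904 CPM, most of it Crym, at 374, 618, 597, 779 and 723. The layer 6b genes summed to 101, 117, 209, 281 and 258. Median depth rose along the same steps, from 3697 to 6272, 9199.5, 16392 and 15293 UMIs, so that this order is given as a description only.

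Of the gene lists taken to place the cells, those of subiculum and layer 5 had the highest medians of the neuronal lists with more than 2 genes tested. The layer 6b list, with 1 gene tested, stood at 0.83. All lists were chosen with earlier results of these data known, so their order is a description only. All genes tested had a median log2 fold change of -0.01. Of 8 subiculum genes 6 were tested, with a median of 1.32, and Nts and Lxn were called higher. Rxfp1, at 1.11, was not (adjusted p = 0.113 by edgeR) except with 1 matched cell for each selected cell (1.95, adjusted p = 0.0034), and Tshz2, at -0.03, showed no difference beyond the spread. Of 7 layer 5 genes 5 were tested, with a median of 0.88, and Etv1 and Pcp4 were called higher, while Bcl11b, encoding CTIP2, stood at -0.02.

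Of the 12 CA1 genes all were tested, with a median of -0.16, and Zbtb20, Fibcd1, Wfs1 and Neurod6 were called lower and none higher. Neurod6, a basic helix-loop-helix factor of excitatory neurons, averaged 476 ± 100 CPM against 642 ± 154 (SD, n = 5), with a log2 fold change of -0.51 (adjusted p = 0.0371 by edgeR). The other 8 lay between -0.55 for Spink8 and 0.57 for Nov, and none of them passed the test. Only 3 of 12 layer 6 corticothalamic genes had enough UMIs to be tested, Crym (0.30), Garnl3 (0.45) and Thsd7b (-0.19), and none was called. Grik3, a kainate receptor subunit of that list that fell under the filter, averaged 23.2 ± 9.07 CPM against 4.47 ± 6.09 (SD, n = 5 mice) and was higher in 5 of 5 mice.

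Of 6 genes outside the rule that the study names for immature glutamatergic neurons, 5 were tested and 1 was called, Elavl4, an RNA-binding protein of neurons. It averaged 297 ± 67.7 CPM against 171 ± 36.5 (SD, n = 5), with a log2 fold change of 0.71 (adjusted p = 0.0225 by edgeR). That list was chosen by the study on these samples and is no independent evidence. Fut9, a fucosyltransferase, stood at 0.58 with an adjusted p of 0.0505 by edgeR, and of 0.00533 with 1 matched cell for each selected cell. Dcx, a microtubule protein of migrating neurons, had 23 UMIs in the selected and 26 in the matched cells. Of 10 newborn neuron genes 4 were tested, with a median of -0.10, and none was called, and Neurod4 had no UMI in either group.

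Of 19 glutamate and GABA receptor genes 16 were tested with a median of -0.22, and none was called, Grin2b being the nearest with -0.46 (adjusted p = 0.0722 by edgeR). Among 14 tested transcription factors of projection neurons, Etv1 was called higher and Mef2c and Neurod6 lower. Of the relatives of the 7 genes, Tle1, a second Groucho-family corepressor, averaged 40.6 ± 17.6 CPM against 76.2 ± 13.2 (SD, n = 5), with a log2 fold change of -1.02 (adjusted p = 0.0524 by edgeR) while Tle4, left out of the rule, was higher. With 1 matched cell for each selected cell its adjusted p was 0.0284. None of the upper-layer (2 tested), layer 6b (1), GABAergic (0) or dentate and CA3 (0) genes was called. The layer 6b gene Nr4a2 (log2 fold change 1.17) was called higher with 1 matched cell for each selected cell, and the receptor gene Gabra5 lower. Immediate early genes (6 tested, median -0.37) and genes of EPO receptor signaling (3 tested) had no call, and among 7 hypoxia genes tested Bnip3 was called higher, at 1.07 (adjusted p = 0.0459 by edgeR), a call that was lost with 1 matched cell for each selected cell (adjusted p = 0.234) and without placebo mouse 1 (adjusted p = 0.0568).

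Genes of endothelial cells and oligodendrocytes were highest in 1 library. The 7 endothelial genes summed to 1805 CPM in the selected cells of placebo mouse 1, against 5.03 to 104 in those of the other 5 mice. Of the 483 endothelial UMIs of all selected cells, 403 were in 1 cell of placebo mouse 1, which had all 7 endothelial genes, 24405 UMIs, 5 UMIs of Snap25, none of Slc17a7 and 3 of the 7 deep-layer genes. The oligodendrocyte genes summed to 18072 CPM in the matched cells of placebo mouse 1, against 314 to 1820 in the other matched cells. Across the other 5 mice the selected cells held 215 to 3385. The 8 oligodendrocyte genes tested had a median log2 fold change of -1.14, and without placebo mouse 1, 6 were tested, with a median of -0.13, and none was called. Without the selected cells that carried a list of another cell type, 69 genes were called over the 3 mice that were left. Of the other lists, Slc4a4 was called lower among 7 astrocyte genes tested (median -0.57). Without placebo mouse 1, Slc4a4, Aldoc and Slc1a3 were called lower among 4 tested (median -1.52), and with 1 matched cell for each selected cell none of 4 was called (median 0.55). Itm2a was called higher among 2 endothelial genes tested, while the 1 microglia and the 1 oligodendrocyte precursor gene tested were not called. The part of other cell types in the remaining calls was not tested.

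Of the retained cells, 5.09, 3.33 and 6.27% were selected in the placebo mice (numbers 1, 3 and 5), and 6.72, 9.14 and 4.83% in the EPO mice (2, 4 and 6). The groups overlapped, EPO mouse 4 being highest and placebo mouse 3, with 3 cells, lowest. Placebo mice averaged 4.90% ± 1.48 and EPO mice 6.89% ± 2.16 (SD, n = 3 each), a difference of 2.0 percentage points (two-sided exact permutation test, p = 0.3, where 0.1 is the smallest possible). Without the copies of shared barcodes with fewer UMIs the difference was 1.97 points and without both copies 3.39 (p = 0.2, exact permutation test). The difference was 2.51 points within D1 and 0.712 within D2.

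As a share of the selected and other Slc17a7-positive cells, the values were 19.7, 25 and 32.8% with placebo and 29.8, 38.5 and 17.9% with EPO. The highest and the lowest mouse both had received EPO. Averages of 25.8% ± 6.57 and 28.8% ± 10.3 (SD, n = 3 each) differed by 2.94 points (p = 0.8, exact permutation test), by 7.47 within D1 and by -4.54 within D2. The direction turned without EPO mouse 4 (-1.95 points) and without placebo mouse 1 (-0.122). After each cell was thinned to 1000 UMIs, 1, 1 and 2 placebo cells and 0, 3 and 2 EPO cells still met the rule, 4.35% ± 3.57 against 1.92% ± 1.68 (SD, n = 3 each), which is too few for an order. Thinned to 2000 UMIs, the means were 2.31% ± 2.01 and 8.78% ± 2.76 (SD, n = 3 each) and the groups did not overlap (p = 0.1, exact permutation test, the smallest that 3 against 3 mice allow). No share could pass a threshold of 0.05 in this design, and the direction depended on the depth of thinning and on its random seed.

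**Figure D4:**
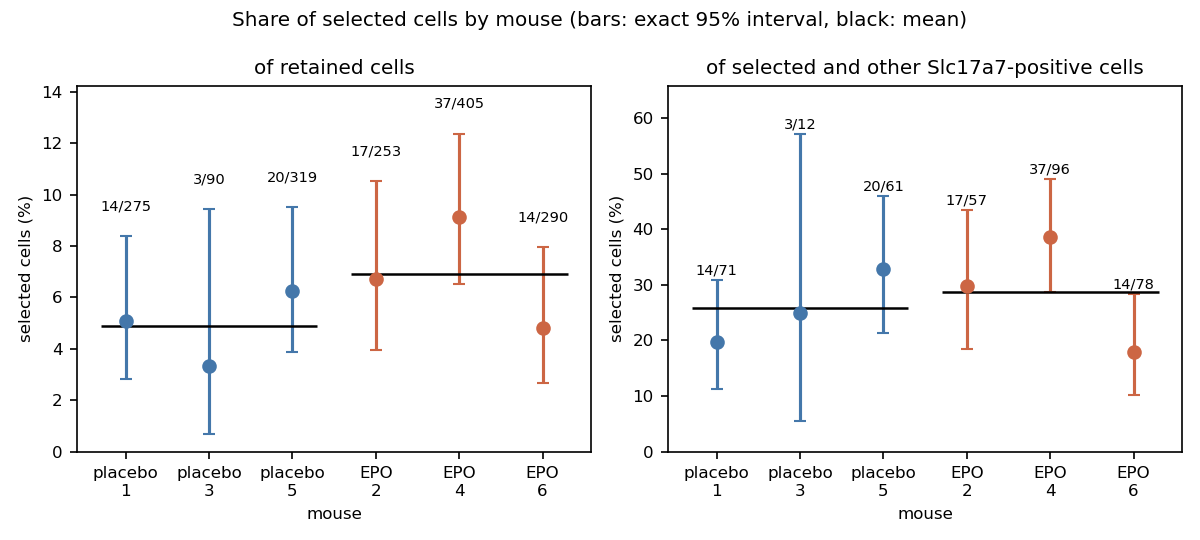
Selected cells per mouse as a percent of retained cells (left) and of selected and other Slc17a7-positive cells (right), with exact 95% intervals, counts above each interval and black lines for the mean of 3 mice. The groups overlap in both panels, and placebo mouse 3 has the widest interval.

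Within the selected cells, EPO was compared with placebo over 6 mice. Of 4729 genes 0 passed the adjusted p of 5% by edgeR (0.0% of genes), by DESeq2 or by limma, and 115, 71 and 84 had an unadjusted p under 0.05. In 239 genes (5.05%) the 3 EPO mice lay above the 3 placebo mice and in 152 (3.21%) below them. The 7 genes of the rule are given as values only. Hs3st4 measured 235, 139 and 176 CPM with placebo and 171, 153 and 169 with EPO, and Tle4 119, 139 and 58.7 against 60.4, 108 and 100. Both overlapped between the groups.

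Slc17a6 had the smallest p of the genes higher with EPO, at 21.3, 46.4 and 43.0 CPM with placebo and 80.5, 201 and 169 CPM with EPO. The groups did not overlap, but the log2 fold change of 2.18 (SE 0.49) had an adjusted p of 0.690 by edgeR, and the 80.5 of EPO mouse 2 rested on 16 UMIs of 1 cell. Ablim1, an actin-binding protein, had the smallest p of the lower genes, at 252, 92.7 and 90.0 against 25.2, 24.8 and 32.1 (log2 fold change -2.59, SE 0.50, adjusted p = 0.322 by edgeR). Placebo mouse 1 stood highest, and the 92.7 of placebo mouse 3 came from 2 UMIs. Without the deepest selected cell of each mouse, 4 genes were called by edgeR, Ablim1 (-2.64, adjusted p = 0.000708), Hbb-bs (-2.57) and Apoe (-2.27) lower and Dcn (2.83) higher. Without the copies of shared barcodes with fewer UMIs the count stayed at 0, and without both copies it was 2.

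The genes of the neurotensin cells leaned the same way as Slc17a6. Nts measured 171, 0 and 106 CPM with placebo against 337, 319 and 341 with EPO, and Lxn 85.3, 92.7 and 78.2 against 206, 211 and 181. Neither pair of groups overlapped, and the log2 fold changes of 1.39 and 1.26 had adjusted p-values of 1.00 by edgeR. Etv1 measured 188, 46.4 and 188 against 383, 623 and 313 (1.37) and Zbtb20 499, 835 and 665 against 388, 199 and 426 (-0.92), again without overlap and with adjusted p-values of 1.00 by edgeR. Rxfp1 overlapped between the groups, at 98.2, 0 and 11.7 against 146, 308 and 32.1. In placebo mouse 3 the values came from 0 UMIs of Nts, 2 of Lxn, and 1 each of Etv1 and Slc17a6. Its 18 UMIs of Zbtb20 were all in 1 cell, so the lack of overlap is weakly founded for that mouse. In EPO mouse 2, 1 cell held 65 of the 67 Nts UMIs, 38 of the 41 of Lxn and 55 of the 76 of Etv1. For these 3 genes the lack of overlap is therefore weakly founded in EPO mouse 2 as well. Cells with at least 10 Nts UMIs numbered 2 of the 37 selected placebo cells and 9 of the 68 selected EPO cells. The order of the means of these genes thus rests on few cells.

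**Figure D5:**
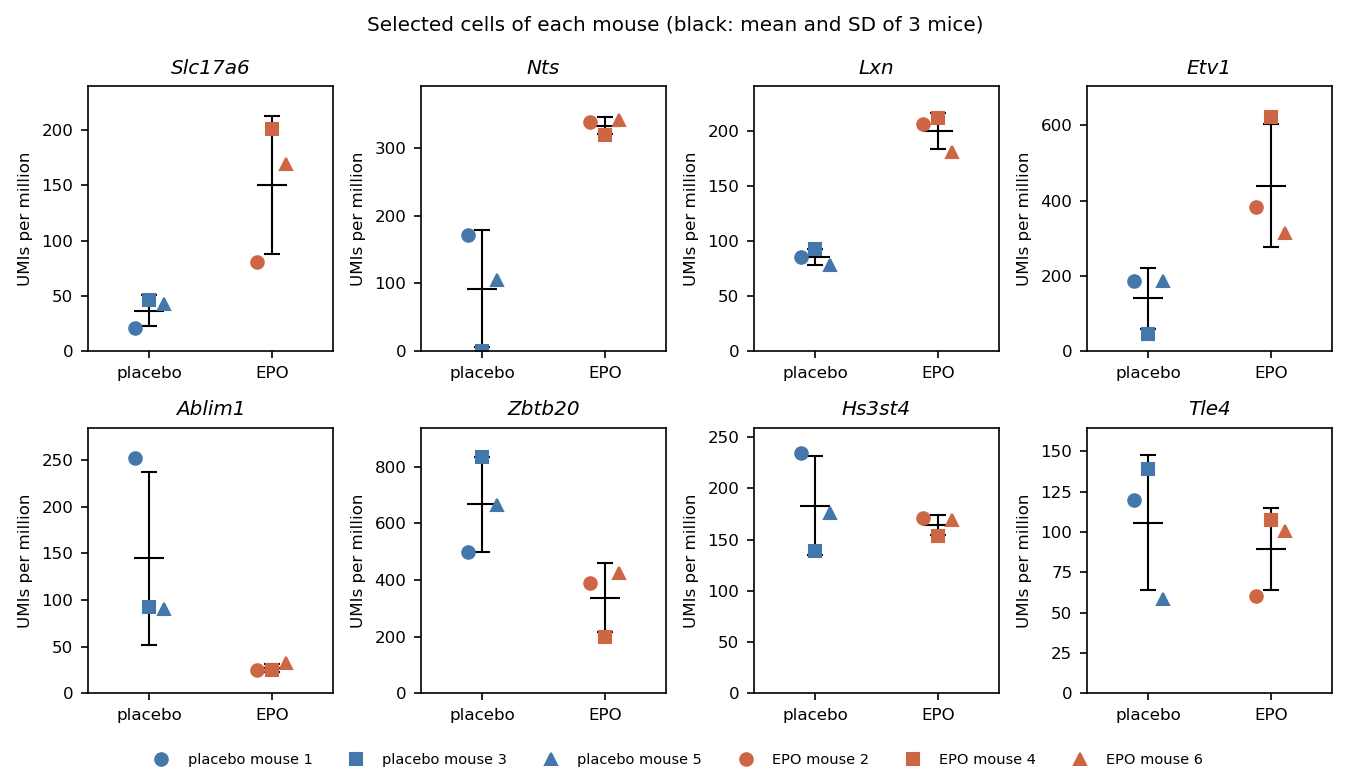
Levels of 8 genes in the selected cells of each mouse (CPM, linear axes from 0), placebo against EPO, with black marks for the mean and SD of 3 mice. Slc17a6, Nts, Lxn and Etv1 are higher and Ablim1 and Zbtb20 lower in the 3 EPO mice without overlap, and none passed the adjusted p of 5%.

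Whether the step from matched to selected cells differed between treatments was tested over the 5 mice with enough cells. By edgeR 22 of 6653 genes were called (0.331%), 13 with a larger step in EPO mice (0.195%) and 9 with a smaller one (0.135%), and 392 had an unadjusted p under 0.05. Nts had a log2 difference of 4.41 (adjusted p = 0.00016 by edgeR). Its matched cells in placebo mouse 5 held 30 UMIs, 22 of them in 1 cell, against 1 to 4 UMIs in those of the other 4 mice. The placebo arm held only mice 1 and 5, so that leaving out either left 1 placebo mouse, which was then assumed to vary like the EPO mice. Without placebo mouse 1, Nts was the gene still called (5.66, adjusted p = 2.18e-08 by edgeR), a value that rests on placebo mouse 5 alone. Without placebo mouse 5 the adjusted p of Nts was 0.587, with 1 matched cell for each selected cell 0.486 and without the deepest selected cells 0.0954. Without the copies of shared barcodes with fewer UMIs 14 genes were called. DESeq2 called 4 genes, 3 for hemoglobin and Mobp, and gave Nts an adjusted p of 1.00.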

How the data were processed

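UMI counts, not normalized, were deposited by the authors in a single table of genes by barcodes, and missing entries were set to 0. Per the submitters' processing notes, bcl2fastq 2.15 and STAR 2.4.0 were used with mm10, while how 1000 barcodes per mouse were picked is not given in the sources used here. The selected cells and the gene lists were chosen with earlier results of these data known. UMIs were summed per mouse over selected and matched cells (mice with at least 5 selected cells), scaled by trimmed means and tested by edgeR 4.0.16 (quasi-likelihood, R 4.3.3) at an adjusted p (Benjamini-Hochberg) under 5%. The mouse was a block because selected and matched cells of 1 number come from the same animal. The rule's genes, the exclusion genes and Slc17a7 were not counted among calls. Levels are CPM of all UMIs in a sum. DESeq2 1.42.0, limma 3.58.1, other scalings, filters, matchings, rules for cells and each mouse left out in turn were alternatives. Removing shared barcodes, cells without Slc17a7, carriers of other lists or the deepest cell, a limit on the match, and 1 matched cell in the left-out and interaction tests, were chosen after seeing the data. Named genes are the up to 15 per direction with the smallest p among those called (5 for the interaction, otherwise 1), and list members, of which some are not reported here. Doublets were called by Scrublet (scanpy 1.11.5) and kept. Shares were compared by exact permutation over mice. On simulated counts of the same sums, edgeR called 0 genes when none was changed. Of 200 genes changed 4-fold it recovered 92.5% between selected and matched cells (6713 genes), 83.0% between treatments (4712 genes) and 57.5% in the interaction (6852 genes). All genes were simulated at 1 dispersion, 0.0231, taken from the fit with the mouse as a block. For treatments each gene had 1 mean over all mice, so spread between mice beyond that dispersion was left out. These shares therefore do not give the power on the real counts.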

Additional observations from a re-analysis of the deposited data

Results flagged for a closer look

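The step from matched to selected cells differed between EPO and placebo mice for 9 named genes by edgeR's test of the interaction, given as log2 differences. Of the genes with a larger step in EPO mice, Nts (4.41) is described above. The other 4 were Hbb-bs (2.93) and Hbb-bt (4.46), which encode hemoglobin chains, and Mobp (3.01) and Cldn11 (3.26), which belong to myelin. In the matched cells of placebo mouse 1, Hbb-bs stood at 4415 CPM against 20.3 to 68.3 in the other 4 mice, and Mobp at 812 against 17.4 to 60.1.

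Of the genes with a smaller step in EPO mice, Sparc (-3.63) and Ly6c1 (-5.28) are typical of endothelial cells, Pla2g7 (-3.85) is typical of astrocytes, and Ablim1 (-2.61) binds actin. Sparc measured 623 and Ly6c1 290 CPM in the selected cells of placebo mouse 1, which include the cell with 403 endothelial UMIs, against at most 14.5 and 48.2 in the other 4 mice. Without placebo mouse 1 none of these genes other than Nts was called, and without the deepest selected cell of each mouse Hbb-bs, Mobp, Sparc and Ly6c1 were. With 1 matched cell for each selected cell, Mobp, Cldn11, Ly6c1 and Ablim1 were called, Hbb-bs, Hbb-bt and Nts were not, and Sparc and Pla2g7 were not tested.

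Among 4292 barcodes with at most 500 genes, which no comparison used, 4 had UMIs of at least 3 of the 7 genes, 1 in EPO mouse 4, 2 in placebo mouse 5 and 1 in EPO mouse 6.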

How the results depend on the processing

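Counts of genes called between selected and matched cells, 113 in the fit reported, were 51 by DESeq2, 252 with a low filter, 62 with 1 matched cell each, 18 with no replicate block, 57 for selected cells with Slc17a7, 69 without carriers of other lists and 47 without the deepest cell of each mouse (45 of them among the 113), and 48 (without EPO mouse 4; 64 without EPO mouse 2) to 119 with each mouse left out. Between treatments within selected cells, 0 became 56 with a low filter, 2 with at least 2 of the 7 genes, 2 without both copies of shared barcodes, 4 without the deepest cells, and 0 to 11 with each mouse left out; the 11, without placebo mouse 5, were all highest in placebo mouse 1. The interaction's 22 became 4 by DESeq2, 14 without lower copies of shared barcodes, 4 without the deepest cells, 12 with 1 matched cell each, and 1 (without placebo mouse 1) to 46 (without placebo mouse 5). The difference in the share of Slc17a7-positive cells ran from -1.95 to 8.35 points with each mouse left out. After thinning, the difference of -2.43 points was 6.47 at 2000 UMIs and 0.587 with another seed. Left-out Rprm passed against all other Slc17a7-positive cells (log2 fold change 1.54, adjusted p = 0.0357 by edgeR). With 1 matched cell each, left-out Tle4 lost its call (1.09) and Fezf2 gained one (1.79). The mitochondrial difference was 2.3 points with 1 matched cell each, -0.160 from means and -1.13 to 0.813 with each mouse left out. The cause was not tested for any of these. Of the other summary values, 113 kept direction and side of the threshold, and for named genes 720 did, 68 lost their call, 4 gained one (Ablim1 in 3 settings and Slc17a6 in 1, between treatments) and none turned direction. Sums of few UMIs, above all in placebo mouse 3, limit every comparison.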
